A study of Mus musculus with 12 samples.

Results

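The annexins are a family of calcium-dependent membrane binding proteins, and 9 of their genes (Anxa1, Anxa2, Anxa3, Anxa4, Anxa5, Anxa6, Anxa7, Anxa11 and Anxa13) were followed through liver transcriptomes from WT mice and from mice whose hepatocytes lack PPARα (KO), on chow or on a steatohepatitis diet. The members were chosen by gene symbol, and all 9 were found among the 55357 genes of the count table. Each of the 9 passed the filter on low counts. The table also held 3 annexin genes outside the list (Anxa8, Anxa9 and Anxa10), which are given at the end.

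RNA-seq of whole liver was available for 12 male C57BL/6J mice that started their diet at 7 weeks of age and were killed at 13 weeks. WT chow comprised 4 libraries and WT CDAHFD 3 libraries, both from PPARa fl/fl AlbuminCre +/+ mice, whereas KO chow comprised 2 libraries and KO CDAHFD 3 libraries, both from PPARa fl/fl AlbuminCre Tg/+ mice, so the floxed Ppara allele was shared by all groups. CDAHFD is a high-fat diet without choline whose protein is replaced by defined L-amino acids, given here for 6 weeks and compared with standard chow over the same time. The Cre recombinase is driven by the albumin promoter and removes Ppara in hepatocytes. The paper proposes that Ppara mRNA left in KO livers may come from other cells, mainly stellate cells. Which cell types of the KO liver keep the gene was not tested. The study states 3 mice per group, the labels give 4, 3, 2 and 3 libraries, and the labels were followed. Nothing in the labels says that the libraries of a group came from separate cages or preparation days, so p-values measure the spread between these libraries.

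Annexins share a core of repeats that docks on acidic phospholipids such as phosphatidylserine when calcium rises, and differ in an N-terminal tail that binds partner proteins, among them S100 proteins. They are known for patching torn plasma membranes, for steering vesicle traffic and, outside the cell, for limiting inflammation and for assembling plasmin on the cell surface. In the liver, annexin A6 is a well known protein of hepatocyte endosomes, whereas annexin A2 is scarce in resting hepatocytes and rises in liver cancer.

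The start-site regions are shown for the 3 members that had a single promoter window lying mostly outside the annotated gene. Anxa4 and Anxa7 had 2 windows each and were left out. The window of Anxa1 lay mostly inside its annotated gene, and Anxa3, Anxa6 and Anxa13 had no window. The sequences are RefSeq promoter windows of GRCm38.p6, cut to the bases upstream of every annotated start and written 5′ to 3′ on the strand of the gene. Windows were found for 6 of the 9 members, and the stretches shown belong to Anxa2 (chr9:69453433-69453619, plus strand, 187 bases), Anxa5 (chr3:36475895-36476137, minus strand, 243 bases) and Anxa11 (chr14:25841905-25842154, plus strand, 250 bases). Capitals mark an AP-1 site (TGANTCA) or a GC box (GGGCGG, or CCGCCC on the other strand).
Anxa2: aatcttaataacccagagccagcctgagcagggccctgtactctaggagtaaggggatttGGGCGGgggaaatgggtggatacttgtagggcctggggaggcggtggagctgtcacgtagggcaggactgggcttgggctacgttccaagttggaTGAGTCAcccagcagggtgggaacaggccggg
Anxa5: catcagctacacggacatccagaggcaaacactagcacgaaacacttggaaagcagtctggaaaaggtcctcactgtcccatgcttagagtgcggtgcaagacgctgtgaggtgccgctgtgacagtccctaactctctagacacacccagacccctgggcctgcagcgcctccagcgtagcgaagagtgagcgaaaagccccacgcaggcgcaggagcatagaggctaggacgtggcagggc
Anxa11: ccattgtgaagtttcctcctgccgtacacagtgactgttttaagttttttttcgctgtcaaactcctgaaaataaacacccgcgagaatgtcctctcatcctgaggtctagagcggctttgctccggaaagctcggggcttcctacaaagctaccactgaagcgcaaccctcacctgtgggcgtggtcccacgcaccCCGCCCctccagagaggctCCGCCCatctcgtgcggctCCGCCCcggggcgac
The Anxa2 stretch held 1 AP-1 match beginning 95 bases before the start site, a motif that 5.12% of 32544 mouse promoters hold in the same stretch, and 1 GC box (22.4% of promoters). The Anxa11 stretch held 3 GC boxes, at 53, 34 and 15 bases before the start, where 33.0% of promoters hold at least 1. No match to any of the searched motifs was present in the Anxa5 stretch. Both strands were searched, the matches did not overlap, and neither the CCAAT box (CCAAT), the TATA box (TATAAA), the TEAD site (CATTCC) nor the DR1 element, the type of site that PPARα binds with RXR, matched in any of the 3 stretches. The stretches held 5, 12 and 17 CpG dinucleotides for Anxa2, Anxa5 and Anxa11. A match is a description of the letters, and its absence says only that the letters are not in this window. The DR1 search took only 1 exact set of letters, which 0.0215% of the 32544 promoters hold in the stretch used for Anxa2. The share was 0.0338% for the stretches of Anxa5 and Anxa11. Nearly all promoters lack these letters, so the missing DR1 match cannot tell whether PPARα binds at these 3 genes. Such binding was not tested.

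Each library held between 29906785 and 43551003 counts (median 36989922). Values are given as CPM, the count relative to the scaled size of its library, after scaling with TMM (the trimmed mean of M-values), whose factors ran from 0.7292 to 0.8268 in WT chow and from 1.026 to 1.258 in the other groups. Ppara itself ranged from 96.2 to 238 CPM in WT chow, from 59.5 to 75.5 in WT CDAHFD, was 14.4 and 38.7 in KO chow, and ranged from 20.7 to 51.9 in KO CDAHFD, so every KO library lay below every WT library. The counts cover the whole gene, including exons outside the deleted part. A clock-gene score (mean log2 CPM of 4 genes that peak in one phase of the day minus that of 7 genes of the opposite phase) was above 3 in WT chow replicates 1 and 2 (3.89 and 3.28) and below 0 in replicates 3 and 4 (-2.61 and -2.55), and was also below 0 in KO chow replicate 2 (-0.717) and KO CDAHFD replicate 3 (-3.48). Within WT chow, Anxa1, Anxa6, Anxa7, Anxa11 and Anxa13 had both libraries of high score on one side of both libraries of low score, as given for each below, and the part of the score in their values was not tested beyond the fits named. The share of all genes with such a split was not counted, so the split is not read as a trait of these annexins.

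Most annexin mRNAs were higher in livers that lacked hepatocyte PPARα or had received CDAHFD than in WT chow livers. In KO chow against WT chow, 7 annexins were higher, 1 (Anxa11) was lower and 1 (Anxa6) was not called, at an adjusted p below 0.05 in edgeR's quasi-likelihood test over 17358 genes. The background is high, since 39% of all genes tested were called in this comparison (22% higher and 17% lower). WT CDAHFD against WT chow gave the same numbers of higher and lower annexins, where 51.1% of all genes were called (26.1% higher and 25% lower). The median log2 fold change over the 9 annexins was 0.91 for the KO on chow and 1.76 for the diet in WT, beside 0.00 and -0.05 over all genes tested. With library size as the only scaling the balance of all genes shifted, from 3814 higher and 2949 lower to 7037 and 1149 in KO chow and from 4522 and 4341 to 9092 and 1170 in WT CDAHFD, Anxa6 became higher in both and Anxa11 was no longer called lower in either, whereas the other 7 members kept direction and call. In KO CDAHFD against WT chow, 8 annexins were called by edgeR, beside 52.4% of all genes (26.9% higher and 25.4% lower, and 9775 against 1095 genes with library size only in place of 4674 against 4417). DESeq2 called 7 annexins there, and 9160 of all genes against 9091 in edgeR.

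Between the genotypes under CDAHFD edgeR called 0 annexins, 1 had an unadjusted p below 0.05 and DESeq2 called 1, beside 0.357% of all genes called by edgeR (0.0864% higher and 0.271% lower in KO). The comparisons share libraries (WT chow is the reference of 3 of them), so they are not independent of each other.

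**Figure D1:**
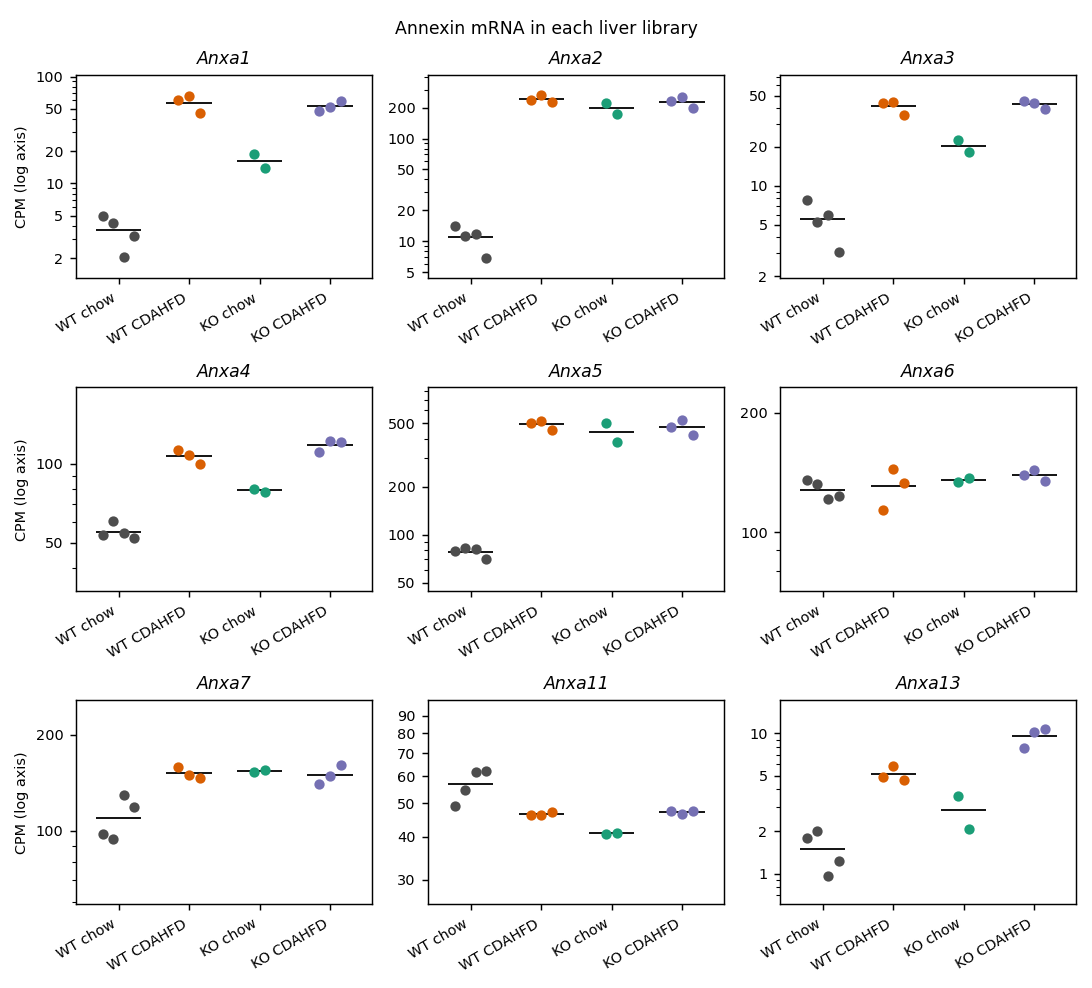
Abundance of the 9 annexin mRNAs in each of 12 liver libraries, in CPM on a log axis, with a point per library and a bar at the group mean. Anxa2 and Anxa5 are raised in WT CDAHFD, KO chow and KO CDAHFD, with both KO chow libraries of Anxa2 (223 and 173) below the 3 of WT CDAHFD, Anxa1, Anxa3, Anxa4 and Anxa13 take an intermediate level in KO chow, and Anxa6 overlaps between all groups.

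Anxa2 (chr9:69453620-69491795, plus strand) encodes the annexin that pairs with S100a10 and gathers plasminogen and its activator on the cell surface, and it showed the largest change of the 9. Its CPM was 14.1, 11.1, 11.9 and 6.93 in the WT chow livers and 236, 263 and 228 in WT CDAHFD. It was 223 and 173 in KO chow and 232, 254 and 197 in KO CDAHFD. The WT chow libraries thus stood apart from all 8 others. KO CDAHFD overlapped both WT CDAHFD and KO chow, whereas both KO chow libraries lay below all WT CDAHFD libraries. The rise was 17.9-fold in KO chow (log2 fold change 4.17 ± 0.21 SE, edgeR adjusted p = 7.34e-08) and 22-fold in WT CDAHFD (4.46 ± 0.21, adjusted p = 1.38e-08). Differences between the raised groups did not pass the test: -0.09 ± 0.20 in KO CDAHFD against WT CDAHFD (adjusted p = 0.936), 0.20 ± 0.22 in KO CDAHFD against KO chow (adjusted p = 0.644) and -0.29 ± 0.22 in KO chow against WT CDAHFD (adjusted p = 0.46).

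Anxa5 (chr3:36448923-36475894, minus strand) encodes the phosphatidylserine binding protein that is used as a probe for dying cells, and it followed the same course at a higher level. Its CPM was 78.3, 82.1, 81.6 and 70.4 in WT chow, against 504, 518 and 454 in WT CDAHFD. In KO chow it reached 500.1 and 379, and in KO CDAHFD 475, 523 and 421. No raised library came below 379 CPM and no WT chow library above 82.1. The fold changes were 5.63 in KO chow (log2 2.49 ± 0.13, edgeR adjusted p = 8.65e-08) and 6.30 in WT CDAHFD (log2 2.66 ± 0.12, adjusted p = 1.38e-08). The other contrasts gave -0.06 ± 0.13 for genotype under CDAHFD (adjusted p = 0.942) and 0.11 ± 0.15 for diet in KO mice (adjusted p = 0.711). For both Anxa2 and Anxa5 the calls against WT chow and those of the interaction were kept without any single library and under each alternative scaling, filter and test.

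Anxa1 (chr19:20373428-20390944, minus strand) encodes a glucocorticoid-induced protein that acts on formyl peptide receptors to restrain neutrophils, and its change came in steps. The WT chow livers had 4.93, 4.31, 2.07 and 3.26 CPM and the KO chow livers 18.8 and 13.8. With CDAHFD it stood at 60.1, 65.3 and 45.7 CPM in WT and at 47.2, 52.2 and 59.5 in KO. KO chow therefore lay between the WT chow and the CDAHFD livers without overlap on either side. Within WT chow the libraries of high clock score had 4.93 and 4.31 CPM and those of low score 2.07 and 3.26, and with the score as a covariate the rises were 2.14 in KO chow and 3.91 in WT CDAHFD (edgeR adjusted p = 1.46e-05 and 4.87e-08). The log2 fold change was 2.16 ± 0.26 in KO chow (4.48-fold, edgeR adjusted p = 3.17e-05) and 3.97 ± 0.24 in WT CDAHFD (15.7-fold, adjusted p = 8.79e-08). In KO mice the diet raised Anxa1 by another 1.70 ± 0.28 (3.25-fold, adjusted p = 0.00539), a call that was lost without KO chow replicate 2 (log2 fold change 1.49, adjusted p = 0.058). Under CDAHFD the genotypes differed by -0.11 ± 0.23 (adjusted p = 0.937).

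Anxa3 (chr5:96793339-96845966, plus strand) encodes an annexin abundant in neutrophils and also made by many epithelia. It measured 7.80, 5.29, 5.97 and 3.07 CPM in WT chow and 22.5 and 18.4 in KO chow. On CDAHFD the values were 43.8, 44.4 and 35.5 in WT livers and 45.4, 43.6 and 39.6 in KO livers. The order WT chow, KO chow, CDAHFD was again free of overlap, and the CDAHFD groups overlapped. Relative to WT chow, Anxa3 rose by 1.88 ± 0.24 in KO chow (3.68-fold, edgeR adjusted p = 5.27e-05) and by 2.89 ± 0.22 in WT CDAHFD (7.41-fold, adjusted p = 4.36e-07) on the log2 scale. The diet step in KO mice was 1.07 ± 0.26 (2.10-fold, adjusted p = 0.0319) and depended on single libraries, since leaving out WT CDAHFD replicate 1 or any 1 of the KO chow or KO CDAHFD replicates lost the call (adjusted p from 0.0518 to 0.154, log2 fold change 0.93 to 1.23).

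Anxa4 (chr6:86736840-86793584, minus strand) encodes an annexin of epithelial cells that stiffens membranes and takes part in exocytosis, and it showed the same steps in a narrower range. It was 53.4, 60.4, 54.4 and 52.2 CPM in WT chow and 79.9 and 78.1 in KO chow. It then reached 112, 108 and 99.6 in WT CDAHFD and 111, 122 and 120.5 in KO CDAHFD. The spread within groups was low (SD 3.67 CPM over the 4 WT chow libraries), and no CDAHFD library overlapped a chow library. The log2 fold changes were 0.52 ± 0.10 in KO chow (1.43-fold, edgeR adjusted p = 0.00137), 0.95 ± 0.09 in WT CDAHFD (1.93-fold, adjusted p = 2.46e-06) and 0.58 ± 0.11 for diet in KO mice (1.49-fold, adjusted p = 0.0112). The last was not called without KO chow replicate 1 (adjusted p = 0.0715) or replicate 2 (adjusted p = 0.0709).

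Anxa13 (chr15:58341471-58389244, minus strand) encodes an annexin best known from intestinal and kidney epithelium, and it was the rarest of the members. WT chow livers had 1.79, 2.01, 0.967 and 1.24 CPM, corresponding to 27 to 64 counts per library, and the first pair are the libraries of high clock score. The levels were 3.59 and 2.09 CPM in KO chow, 4.90, 5.81 and 4.65 in WT CDAHFD, and 7.83, 10.2 and 10.8 in KO CDAHFD. Anxa13 was the only member whose KO CDAHFD libraries all lay above all WT CDAHFD libraries. That difference was 0.90 ± 0.26 on the log2 scale (1.87-fold) with an unadjusted p = 0.00401, an edgeR adjusted p of 0.257 and a DESeq2 adjusted p of 0.0451, hence it did not hold across both tests. The rise in WT CDAHFD was 1.76 ± 0.26 (3.39-fold, adjusted p = 0.000103) and the diet effect in KO mice was also 1.76 ± 0.31 (3.38-fold, adjusted p = 0.00758), the latter lost without KO chow replicate 2 (log2 fold change 1.41, adjusted p = 0.0671). In KO chow the rise of 0.91 ± 0.29 (1.88-fold, adjusted p = 0.0263) rested on single libraries: it was 0.48 (adjusted p = 0.363) without KO chow replicate 1, 0.74 (adjusted p = 0.0604) without WT chow replicate 3 and 0.84 (adjusted p = 0.0617) without WT chow replicate 4. The fit to only the WT chow and KO chow libraries gave 0.93 with an adjusted p of 0.102. The KO chow pair also followed the clock score (3.59 CPM at 3.32 and 2.09 CPM at -0.717), and with the score as a covariate the rise was 0.86 (adjusted p = 0.0201). In the annotation used here, GENCODE M21, Anxa13 carries the type processed transcript.

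Anxa6 (chr11:54979108-55033445, minus strand), which encodes the large annexin of hepatocyte endosomes, was the member without a called change. Its CPM was 136 and 132 in the WT chow libraries of high clock score, 121 and 123 in those of low score, and 114, 145 and 133 in WT CDAHFD. The KO livers gave 134 and 137 on chow and 139.6, 143 and 134 on CDAHFD. All groups overlapped, with log2 fold changes of 0.08 ± 0.11 in KO chow (edgeR adjusted p = 0.609) and 0.03 ± 0.10 in WT CDAHFD (adjusted p = 0.842) under TMM, whereas with library size as the only scaling it was called higher in both (0.48 and 0.59, adjusted p = 0.00703 and 0.000618). That scaling also moved the median of all genes, to 0.40 for KO chow and 0.51 for WT CDAHFD, and relative to these medians Anxa6 stood slightly above.

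Anxa7 (chr14:20455260-20480133, minus strand), or synexin, encodes a protein that fuses granule membranes and binds sorcin. It measured 97.6, 94.4, 129.8 and 119 CPM in WT chow and 158, 149.8 and 146 in WT CDAHFD. It was 154 and 156 in KO chow and 140.1, 149 and 160.4 in KO CDAHFD. The WT chow libraries lay below all others and fell into a lower and a higher pair, the lower pair being the libraries with clock scores of 3.89 and 3.28 and the higher pair those with -2.61 and -2.55. The rise was 0.49 ± 0.13 in KO chow (1.40-fold, edgeR adjusted p = 0.0104) and 0.46 ± 0.12 in WT CDAHFD (1.38-fold, adjusted p = 0.00559). With the clock score as a covariate it was 0.54 in both comparisons (adjusted p = 0.000632 and 0.000217), and without KO chow replicate 2 the KO chow call was lost (0.48, adjusted p = 0.0531).

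Anxa11 (chr14:25842156-25886804, plus strand), whose long tail binds the calcium sensor Pdcd6 and S100a6 and which ties RNA granules to lysosomes, was the member that was lower. Its CPM was 49.1, 54.6, 61.6 and 62.3 in WT chow, 46.4, 46.4 and 47.2 in WT CDAHFD, 40.7 and 41.1 in KO chow and 47.4, 46.6 and 47.5 in KO CDAHFD. Each WT chow library was above every other library, and the same pair split was seen, with 49.1 and 54.6 in the libraries of high clock score and 61.6 and 62.3 in those of low score. Under TMM the fall was -0.48 ± 0.11 in KO chow (edgeR adjusted p = 0.00445) and -0.29 ± 0.10 in WT CDAHFD (adjusted p = 0.0244), but with library size as the only scaling the WT CDAHFD value turned to 0.28 (adjusted p = 0.0158) and the KO chow value was -0.07 (adjusted p = 0.608). The WT CDAHFD call was also lost without WT chow replicate 3 or 4 or any 1 of the WT CDAHFD replicates (adjusted p from 0.0611 to 0.0773). KO CDAHFD against WT chow gave -0.27 ± 0.10 (adjusted p = 0.0312), which became 0.35 (adjusted p = 0.00429) with library size only, where the median of all genes was 0.57, and was lost without WT chow replicate 2, 3 or 4, KO chow replicate 1 or any 1 of the KO CDAHFD replicates (adjusted p from 0.0548 to 0.115). Among the 8 libraries with a clock score above 0, of which KO chow held 1, a choice made after the data were seen, Anxa11 gave -0.35 in KO chow (adjusted p = 0.0554) and -0.15 in WT CDAHFD (adjusted p = 0.18).

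**Figure D2:**
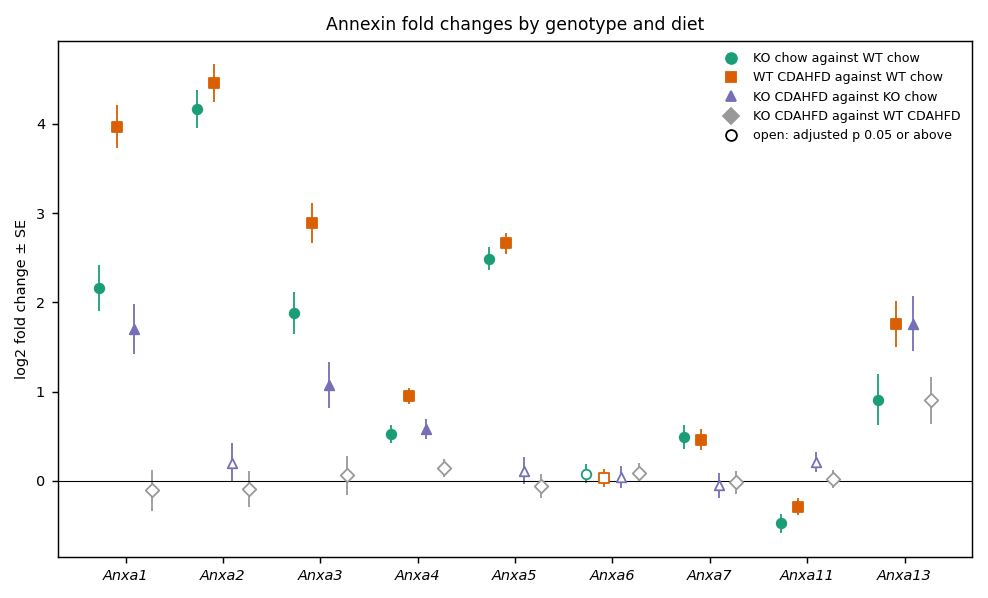
Log2 fold change of each annexin in 4 comparisons, with bars of ± 1 SE from the edgeR fit and open symbols where the adjusted p was 0.05 or above. KO chow and WT CDAHFD reach similar heights for Anxa2 (4.17 and 4.46) and Anxa5 (2.49 and 2.66), stand apart for Anxa1 (2.16 and 3.97) and Anxa3 (1.88 and 2.89), and the KO CDAHFD against WT CDAHFD values lie near 0 except for Anxa13 (0.90).

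The diet effect in KO mice was compared with that in WT mice by the interaction of genotype and diet, in which 5 annexins were called beside 23.1% of all genes (8.63% higher and 14.5% lower, or 1498 and 2513 genes, which became 676 and 4268 with library size only). For Anxa2 the diet effect was lower in KO than in WT mice by 4.26 ± 0.29 on the log2 scale (edgeR adjusted p = 1.95e-06), and the KO chow livers, at 223 and 173 CPM, were raised without CDAHFD. The corresponding differences were -2.55 ± 0.19 for Anxa5 (adjusted p = 2.94e-06), -2.27 ± 0.35 for Anxa1 (adjusted p = 0.000512) and -1.82 ± 0.33 for Anxa3 (adjusted p = 0.00154). Anxa11 gave 0.49 ± 0.15 (adjusted p = 0.0316), which was 0.14 (adjusted p = 0.504) with library size only and was lost without any 1 of the WT CDAHFD or KO chow replicates or without KO CDAHFD replicate 1 or 2 (adjusted p from 0.0511 to 0.0896). Anxa4 (-0.38 ± 0.14, adjusted p = 0.0718) and Anxa7 (-0.51 ± 0.18, adjusted p = 0.0647) missed the threshold in edgeR, and Anxa13 stood at 0.00 ± 0.30 (adjusted p = 0.995). The interaction had 7 annexins with an unadjusted edgeR p below 0.05, and DESeq2 called 7 where edgeR called 5. Of all genes, DESeq2 called 4559 in the interaction and edgeR 4011.

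Directly compared, KO chow was below WT CDAHFD for 3 of the 9 annexins, beside 6.12% of all genes called (2.71% higher and 3.42% lower, or 470 and 593 genes, and 242 and 1025 with library size only). These were Anxa1 (-1.81 ± 0.28, 3.50-fold lower, edgeR adjusted p = 0.00314), Anxa3 (-1.01 ± 0.26, 2.01-fold lower, adjusted p = 0.039) and Anxa4 (-0.43 ± 0.11, 1.35-fold lower, adjusted p = 0.0366). Anxa1 kept its call without any single library, whereas the count fell to 1 without any 1 of the WT CDAHFD or KO chow replicates or without KO CDAHFD replicate 1. DESeq2 called 4 annexins in this comparison, and 2062 of all genes against 1063 in edgeR. KO CDAHFD was above KO chow for 4 annexins (Anxa1, Anxa3, Anxa4 and Anxa13), beside 6.19% of all genes called (3.76% higher and 2.44% lower, or 652 and 423 genes, and 1245 and 138 with library size only). This count fell to 2 when KO chow replicate 1 was left out and to 0 when replicate 2 was. KO chow has 2 libraries, and both comparisons lean on them.

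Compared per exon length (RPKM, the CPM divided by the length of all annotated exons in kilobases), Anxa5 and Anxa6 were the most abundant annexin mRNAs of the WT chow liver, at 44 ± 3.04 and 43.7 ± 2.37 RPKM (SD, n = 4), a difference within their spread. The order depends on the lengths used, which were 1777 bases for Anxa5 and 5991 for Anxa7. By CPM, Anxa6 (128 ± 6.94) and Anxa7 (110 ± 17.0) stood above Anxa5 (78.1 ± 5.40) in WT chow. The sums, shares and ratios below rest on the same lengths. Anxa7 followed at 18.4 ± 2.83, then Anxa11 at 13.8 ± 1.51 and Anxa4 at 11.9 ± 0.789. Anxa2 stood at 2.95 ± 0.807, and Anxa3 (1.52 ± 0.536), Anxa1 (1.25 ± 0.432) and Anxa13 (1.11 ± 0.358) did not differ beyond their spread. On CDAHFD Anxa2 came second behind Anxa5, whereas in KO chow it was within its spread of Anxa6 (53.1 ± 9.35 against 46.2 ± 0.801 RPKM, n = 2), with 46.5 against 46.7 RPKM in replicate 2. In WT CDAHFD the order was Anxa5 (277 ± 18.8 RPKM, n = 3), Anxa2 (65.0 ± 4.87), Anxa6 (44.5 ± 5.36), Anxa7 (25.3 ± 1.04), Anxa4 (22.9 ± 1.38) and Anxa1 (19.6 ± 3.49), the last pair lying within their spread, followed by Anxa3 (11.3 ± 1.36) and Anxa11 (11.3 ± 0.122), again within it, and Anxa13 (3.80 ± 0.451). In KO chow Anxa1 was lower in this order, at 5.61 ± 1.21 RPKM (n = 2) and level with Anxa3 at 5.62 ± 0.788.

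The summed level of the 9 mRNAs was 138 ± 4.16 RPKM in WT chow and 413 ± 59.5 in KO chow. With CDAHFD it was 481 ± 30.8 RPKM for WT mice and 474 ± 36.1 for KO mice. Anxa5 alone made up 31.7% ± 1.29 of the sum in WT chow and 59.7% ± 3.06 in KO chow, and after CDAHFD 57.6% ± 0.894 for WT and 56.1% ± 1.92 for KO mice. The share of Anxa2 went from 2.12% ± 0.547 to 13.5% ± 0.388 in WT CDAHFD and 12.8% ± 0.416 in KO chow. The share of Anxa6 went the other way, from 31.6% ± 1.74 in WT chow to 9.27% ± 1.11 in WT CDAHFD and 11.3% ± 1.83 in KO chow, while its own level was not called different under TMM.

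**Figure D3:**
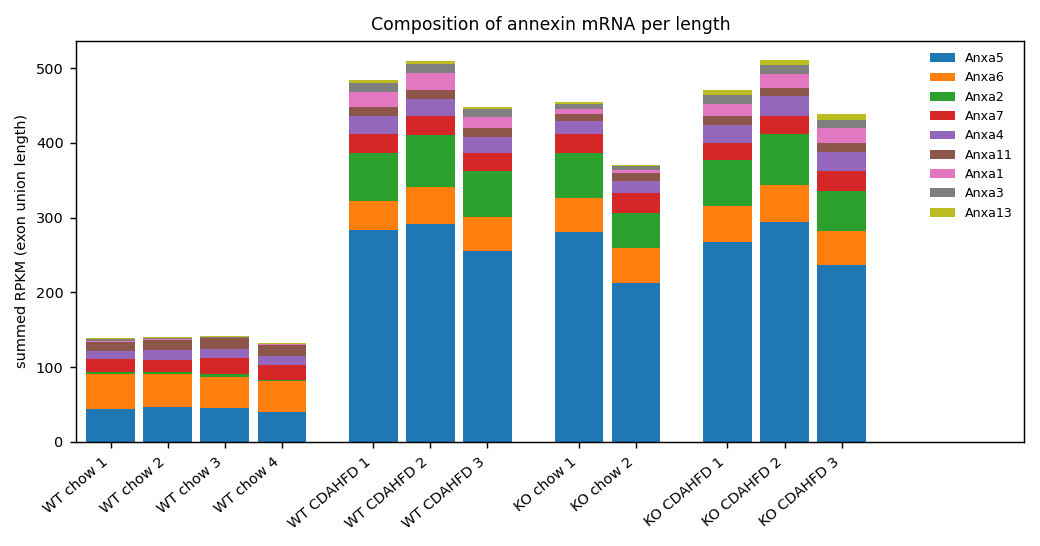
Summed abundance of the 9 annexin mRNAs per library in RPKM, with a stacked bar per library and a colour per gene. The 4 WT chow bars reach 132 to 142 RPKM and the other bars 371 to 511, and most of the added height is Anxa5 and Anxa2.

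Of 6 listed S100 genes, whose proteins bind annexin tails, 4 were tested, of which 3 were higher in KO chow, and 3 were higher and 1 lower in WT CDAHFD. Over all genes tested, 22% were higher and 17% lower in KO chow, and 26.1% and 25% in WT CDAHFD. S100a11, the partner of annexin A1, went from 4.04 ± 1.31 CPM (SD, n = 4) in WT chow to 41.3 ± 4.70 in KO chow (log2 fold change 3.35 ± 0.20, edgeR adjusted p = 1.67e-07) and 49.8 ± 5.13 in WT CDAHFD (3.62 ± 0.19, adjusted p = 2.68e-08). S100a10, the partner of annexin A2, started from a higher level and rose less, from 77.5 ± 23.7 CPM to 196 ± 76.4 in KO chow (1.34 ± 0.30, adjusted p = 0.00339) and 164 ± 19.7 in WT CDAHFD (1.09 ± 0.27, adjusted p = 0.00487). S100a6, which binds several annexins, gave 2.23 ± 0.43 (adjusted p = 0.00143) and 3.25 ± 0.40 (adjusted p = 2.51e-05). S100a13 was lower in WT CDAHFD (-0.53 ± 0.14, adjusted p = 0.00704), and S100a4, with 44 counts over the 12 libraries, and S100b were not tested. Per exon length, the ratio of Anxa2 to S100a10 mRNA was 0.0477 ± 0.0136 in WT chow, between 0.0326 and 0.0597, and 0.342 ± 0.0755 in KO chow. The CDAHFD livers had ratios of 0.482 ± 0.043 (WT) and 0.551 ± 0.142 (KO). The ratio of Anxa1 to S100a11 was 0.159 ± 0.0372 in WT chow and 0.200 ± 0.0168 in WT CDAHFD but 0.069 ± 0.00716 in KO chow, so in KO chow livers S100a11 was near the CDAHFD level while Anxa1 was not.

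All 7 listed genes of the plasminogen system, which annexin A2 helps to assemble, were called in both comparisons, 4 higher and 3 lower. Beside them, 39% of all genes were called in KO chow and 51.1% in WT CDAHFD. Plat, the tissue plasminogen activator that binds annexin A2, stood at 0.4 ± 0.307 CPM in WT chow, at 7.31 ± 2.28 in KO chow (log2 fold change 4.19 ± 0.37, edgeR adjusted p = 2.95e-06) and at 13 ± 1.5 in WT CDAHFD (5.03 ± 0.35, adjusted p = 1.94e-07). The urokinase receptor Plaur rose by 3.80 ± 0.26 (adjusted p = 4.1e-07) and 4.78 ± 0.24 (adjusted p = 2.29e-08), and urokinase itself, Plau, by 2.66 ± 0.17 and 3.49 ± 0.16 (adjusted p = 2.62e-07 and 1.27e-08). Plasminogen, made by hepatocytes, was lower: Plg had 2820 ± 188 CPM in WT chow, against 1290 ± 174 with the KO and 1340 ± 103 with the diet (-1.12 ± 0.14 and -1.07 ± 0.12, adjusted p = 5.07e-05 and 1.26e-05).

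Of the formyl peptide receptor and lipid mediator genes, 6 of 8 were tested, and 4 were higher in KO chow and 4 in WT CDAHFD. The share of all genes called higher was 22% in KO chow and 26.1% in WT CDAHFD. Fpr2, the receptor of annexin A1, was 1.5 ± 0.664 CPM in WT and 4.02 ± 0.198 CPM in KO livers on chow, and 2.24 ± 0.319 CPM in WT and 1.39 ± 0.0894 CPM in KO livers on CDAHFD. It was called higher in KO chow (1.41 ± 0.31, edgeR adjusted p = 0.00294), not called in WT CDAHFD (0.57 ± 0.28, adjusted p = 0.112) and called lower in KO CDAHFD than in KO chow (-1.54 ± 0.33, adjusted p = 0.0188), an order unlike that of Anxa1. Ptgs2, or cyclooxygenase-2, rose by 3.34 ± 0.66 and 3.68 ± 0.60 (adjusted p = 0.00149 and 0.000232), and Alox5ap, which presents arachidonic acid to 5-lipoxygenase, by 1.33 ± 0.29 and 2.75 ± 0.26 (adjusted p = 0.00306 and 2.7e-06). Ptgs2 lay near the floor, at 0.0638 ± 0.0771 CPM in WT chow with 0 CPM in replicates 2 and 4. It was 0.681 ± 0.037 CPM in KO chow and 0.86 ± 0.241 in WT CDAHFD.

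Of 13 listed membrane repair genes 12 were in the table and tested, with 6 higher and 1 lower in KO chow and 6 higher in WT CDAHFD. Over all genes, 39% were called in KO chow (22% higher and 17% lower) and 51.1% in WT CDAHFD (26.1% and 25%). The number of these 12 genes called in WT CDAHFD was thus near the share of all genes. Myof (myoferlin, which reseals plasma membranes) had 3.36 ± 0.904 CPM in WT chow, 18.9 ± 4.43 CPM with the KO and 62.9 ± 9.57 CPM with the diet, and rose by 2.49 ± 0.24 and 4.22 ± 0.23 on the log2 scale (edgeR adjusted p = 5.3e-06 and 3.33e-08). Ahnak, a scaffold bound by the annexin A2 and S100a10 complex, rose by 1.06 ± 0.19 and 2.0 ± 0.17 (adjusted p = 0.000699 and 1.02e-06). Both were also higher in KO CDAHFD than in KO chow (Myof 1.63 ± 0.26 and Ahnak 0.96 ± 0.21, adjusted p = 0.00454 and 0.0198), as Anxa1 was. The ESCRT subunit gene Chmp4c rose by 1.89 ± 0.25 and 2.30 ± 0.23 (adjusted p = 7.79e-05 and 4.07e-06), with the limit that it shares exonic bases with Snx16 on the other strand. The penta-EF-hand calcium sensors that bind annexins changed little: Pdcd6, the partner of annexin A11, gave -0.12 ± 0.11 (adjusted p = 0.422) and -0.30 ± 0.10 (adjusted p = 0.0265), and Sri (sorcin), the partner of annexin A7, 0.27 ± 0.12 (adjusted p = 0.0963) and 0.37 ± 0.11 (adjusted p = 0.011). Of the 4 genes listed as penta-EF-hand proteins 1 was called in KO chow, and all 4 in WT CDAHFD with 3 higher. The calpain genes Capn1 and Capns1, counted above under membrane repair, were called higher in both comparisons.

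Phosphatidylserine, the ligand of annexin A5, is exposed by scramblases and read by bridging molecules and receptors of engulfing cells. Of 16 such genes 9 were higher and 2 lower in KO chow, and 9 were higher and 3 lower in WT CDAHFD. Among all genes tested, 22% were higher and 17% lower in KO chow, and 26.1% and 25% in WT CDAHFD. Mfge8, a bridging molecule that binds phosphatidylserine as annexin A5 does, had 13.6 ± 2.03 CPM in WT chow, 49.0 ± 1.81 CPM with the KO and 117 ± 18.5 CPM with the diet (1.85 ± 0.14 and 3.09 ± 0.14, edgeR adjusted p = 1.2e-06 and 9.84e-09). The receptor kinase Axl rose by 1.72 ± 0.19 and 2.09 ± 0.18 (adjusted p = 2.15e-05 and 1.05e-06) and the scramblase Ano6 by 1.45 ± 0.22 and 1.80 ± 0.20 (adjusted p = 0.000207 and 9.69e-06). Ano6 shares 122 exonic bases with Gm49172 on the other strand, which held 2366 counts against 13184 for Ano6. Timd4, a phosphatidylserine receptor of resident macrophages, split by diet: on chow it was 9.73 ± 2.53 CPM (WT) and 15.5 ± 2.60 CPM (KO), on CDAHFD 0.411 ± 0.233 CPM (WT, log2 fold change -4.57 ± 0.53, adjusted p = 1.42e-05) and 1.46 ± 1.09 CPM (KO).

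**Figure D4:**
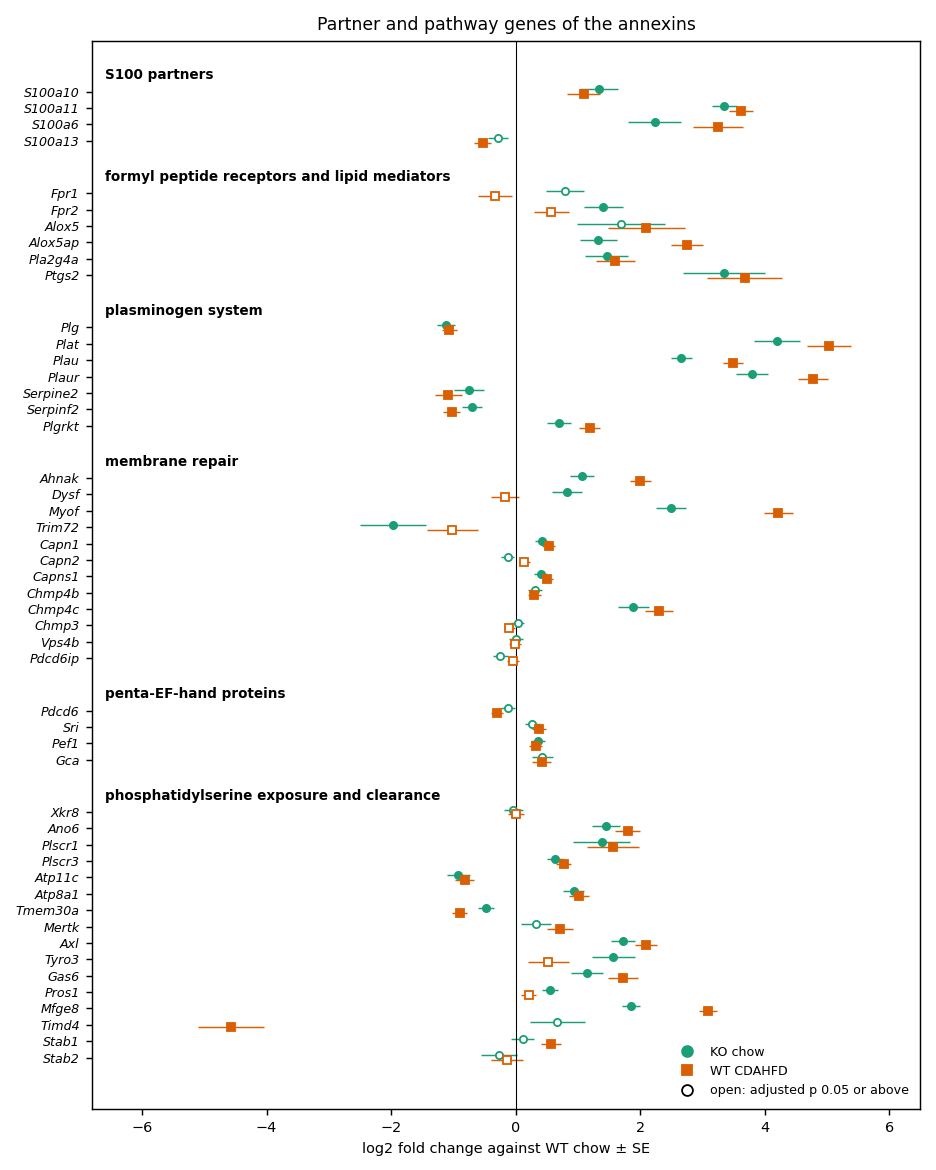
Log2 fold change against WT chow, with bars of ± 1 SE, of the tested genes of 6 lists of annexin partners and pathways, in KO chow (circles) and WT CDAHFD (squares), with open symbols where the adjusted p was 0.05 or above. Plat (4.19 and 5.03), Plaur (3.80 and 4.78), S100a11 (3.35 and 3.62) and Myof (2.49 and 4.22) lie far to the right, Plg lies left of 0 in both, and Timd4 is low in WT CDAHFD alone of the 2 groups.

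Markers of some other liver cells were higher in KO chow and WT CDAHFD, whereas B cell and endothelial markers were not called higher. Of 7 macrophage markers 5 were higher in KO chow, 5 were higher and 1 (Timd4) lower in WT CDAHFD, and their sum ranged from 175 to 313 CPM in WT livers and from 507 to 622 CPM in KO livers on chow, and from 1020 to 1350 CPM (WT) and 1040 to 1190 CPM (KO) on CDAHFD. Gpnmb and Trem2 were left out of the sum in a choice made after the data were seen. The other 5 then summed to 174 to 312 CPM (WT) and 412 to 531 CPM (KO) on chow. On CDAHFD their sum was 406 to 492 CPM (WT) and 333 to 461 CPM (KO). This reduced sum mixed genes that rose with genes that fell. Cd68, Gpnmb and Trem2 were each called higher in KO CDAHFD than in KO chow, Timd4 was called lower and 3 were not called. Mean Cd68 was 40.4 ± 8.38 CPM in chow-fed KO livers, against 98.6 ± 14.3 CPM (WT) and 88.9 ± 3.0 CPM (KO) after CDAHFD. The Kupffer cell gene Clec4f stood at 143 ± 31.2 CPM (WT) and 225 ± 29.7 CPM (KO) on chow, against 96.8 ± 13.4 CPM (WT) and 101 ± 58.5 CPM (KO) on CDAHFD. Gpnmb and Trem2, macrophage genes of fatty liver, went from below 1 CPM in each WT chow library to 73.2 and 75.6 (Gpnmb) and 17.9 and 19.8 (Trem2) in KO chow. Of 5 cholangiocyte markers 4 were higher in KO chow and all 5 in WT CDAHFD. Their sum was 46.0 to 79.4 CPM (WT) and 165 to 288 CPM (KO) on chow, then 358 to 578 CPM (WT) and 568 to 883 CPM (KO) on CDAHFD. The group means of Anxa3, Anxa4, Anxa9 and Anxa13 rose in the same order, with overlapping CDAHFD groups for Anxa3 and Anxa4. For Anxa3 the step from WT CDAHFD (41.2 CPM) to KO CDAHFD (42.9 CPM) changed sign when single libraries were left out (log2 fold change -0.04 to 0.11). Without Spp1, left out likewise, the cholangiocyte sum kept this order, at 6.87 to 20.4 and 24.4 to 36.3 CPM on chow and 43.7 to 52.9 and 68.1 to 85.4 CPM on CDAHFD. Epcam among them was 1.84 ± 0.361, 8.81 ± 3.50, 15.6 ± 3.44 and 32.3 ± 6.51 CPM in WT chow, KO chow, WT CDAHFD and KO CDAHFD respectively. The stellate cell sum of 6 genes was 203 to 276 CPM (WT) and 714 to 762 CPM (KO) on chow, then 821 to 868 CPM (WT) and 853 to 1020 CPM (KO) on CDAHFD. It thus rose in the order of the cholangiocyte sum, with overlapping CDAHFD groups, so this order was not particular to cholangiocyte markers. Of the 6 genes 3 (Col1a1, Dcn and Reln) were higher in each comparison, whereas Lrat, Des and Acta2 were not called. Dcn, at 141 ± 14.6 CPM in WT chow and 406 ± 32.1 CPM in KO chow, made up much of the sum. All 4 proliferation genes were higher in both comparisons, from a sum of 4.50 to 6.90 in WT chow to 92.0 to 184 in KO chow. These marker counts stand beside 39% of all genes called in KO chow (22% higher) and 51.1% in WT CDAHFD (26.1% higher). The stellate count in WT CDAHFD was near the share of all genes called there.

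Hepatocyte markers went down, with 4 of 5 lower in KO chow and 5 of 5 in WT CDAHFD, and a sum of 79600 to 99100 CPM for WT and 68800 to 78800 CPM for KO livers on chow, against 39000 to 53400 CPM on CDAHFD. Neutrophil markers (4 of 5 tested, 2 higher in KO chow and 3 in WT CDAHFD) summed to 0.871 to 8.39 CPM in WT chow and 9.77 to 21.7 in the other groups, where the defining gene Ly6g stayed at or below 0.0816 CPM and Mpo was at 0 in all WT chow libraries. T and NK cell markers (3 of 5 higher in KO chow, 2 in WT CDAHFD) reached at most 6.69 CPM in sum, B cell markers had 0 of 4 called in either comparison by edgeR or DESeq2 (unadjusted p below 0.05 for 1 in KO chow and 0 in WT CDAHFD) and mesothelial markers had 1 of 4 higher in KO chow and 2 in WT CDAHFD, their sum reaching at most 13 CPM, while endothelial markers had 0 of 5 called by edgeR or DESeq2 in KO chow (0 with an unadjusted p below 0.05) and 3 lower in WT CDAHFD. As a background to these counts, 22% of all genes were higher and 17% lower in KO chow, and 26.1% and 25% in WT CDAHFD. In whole liver, more cells of a type and more RNA per cell cannot be told apart, and the part of these cell types in the annexin values was not tested.

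The genes whose profiles over the 12 libraries lay closest to each annexin were ranked by the root mean square difference of centred log2 CPM among 12905 genes. Anxa5 was closest to Cd72 (0.166), Rap2b (0.171) and Cd48 (0.172), and Anxa2 to Acod1 (0.230), Il1rn (0.254) and Ccdc120 (0.255). Anxa1 was closest to C5ar1 (0.294), Lilr4b (0.322) and St14 (0.325), while Anxa3 lay close to Emp3 (0.1) and Cyba (0.162). Anxa4 lay nearest to Mapk3 (0.109), Mmp14 (0.118) and Agpat1 (0.123). Anxa13 lay nearest to Dcdc2a (0.185), AI838599 (0.224) and Kif12 (0.264). Anxa6, Anxa7 and Anxa11 were nearest to Wtap (0.0721), Cd3eap (0.0639) and Ip6k1 (0.0536). Among the annexins themselves the closest pair was Anxa6 and Anxa11 (0.246) and the most distant Anxa2 and Anxa11 (2.24).

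Outside the list, Anxa9 had 1.39 ± 0.426 CPM (WT) and 3.17 ± 0.782 CPM (KO) on chow and 4.68 ± 0.322 CPM (WT) and 6.52 ± 0.992 CPM (KO) on CDAHFD, and was called higher in KO chow (1.18 ± 0.26, edgeR adjusted p = 0.0029) and WT CDAHFD (1.74 ± 0.23, adjusted p = 4.12e-05). It shares exonic bases with Mindy1 on the other strand, which held 46456 counts against 1863 for Anxa9, and the libraries are not strand-specific, so its counts are uncertain. Anxa8 ranged from 0.0476 to 0.567 CPM and was called lower in KO CDAHFD than in WT chow (-1.72 ± 0.64, edgeR adjusted p = 0.0379), with overlapping groups. Anxa10 had 0 counts in all WT chow libraries, which allows up to 3 counts in each, and at most 7 elsewhere, and was not tested. For the 9 listed members the overlapping genes (Gm16144 for Anxa2, Gm42603 for Anxa3, Gm44036 for Anxa4 and Anxa11os for Anxa11) held at most 0.117% of the member's counts.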

How the data were processed

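Poly-A RNA of 12 mouse livers was sequenced with a non-directional protocol. The authors deposited a table of raw read counts per Ensembl gene; per the submitters' processing notes FastQC 0.11.5, STAR 2.7.3a, GRCm38 and DESeq2 were used. The counting program and annotation release are not given in the sources used here. Symbols, positions and exon lengths came from GENCODE M21, which held 94.08% of the gene IDs. Counts were fitted with edgeR 4.0.16 in R 4.3.3 (filterByExpr, TMM, quasi-likelihood F test, one mean per group over all 12 libraries), with Benjamini-Hochberg adjustment over 17358 genes and a call at adjusted p below 0.05. SE was the absolute log2 fold change over the square root of F. DESeq2 1.42.0 was an alternative. No library pair agreed within sampling noise. The script was tested on simulated data. Named were the annexins, partners that bind annexins, and up to 4 called genes with the largest WT CDAHFD change per list. For profiles, a prior count of 2 and a mean count of at least 50 were used. Members and lists were chosen with earlier results of these data known. Some genes of the lists and profiles are not reported here.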

Additional observations from a re-analysis of the deposited data

Results flagged for a closer look

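For 5 annexins the diet effect differed between KO and WT mice by the interaction term of the edgeR fit. The interaction, the log2 diet effect in KO mice minus that in WT mice, was -2.27 for Anxa1, -4.26 for Anxa2, -1.82 for Anxa3, -2.55 for Anxa5 and 0.49 for Anxa11. The first 4 have in common that KO chow livers were already raised, at 16.3 ± 3.53 CPM (SD, n = 2) for Anxa1 and 198 ± 34.9 for Anxa2, against 3.64 ± 1.26 and 11 ± 3.01 in WT chow (n = 4). The value of Anxa11 depended on the scaling and on single libraries. Of all genes tested, 23.1% were called in the interaction. No library stood out as an extreme value of its group for any annexin in WT chow, the only group of 4 libraries.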

How the results depend on the processing

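Counts of called annexins stayed within 1.5 times in the RLE, library size, unfiltered, replicate block, clock covariate, 2-group and clock score above 0 fits, the last chosen after seeing the data. DESeq2 called 1 annexin (Anxa13) in KO CDAHFD against WT CDAHFD where edgeR called 0. It called 7 in the interaction (edgeR 5) and 4 in KO chow against WT CDAHFD (edgeR 3). For KO CDAHFD against WT chow it called 7 (edgeR 8). When libraries were left out in turn, KO CDAHFD against KO chow ranged from 0 to 4 called annexins and KO chow against WT CDAHFD from 1 to 3. Direction changed for the following log2 fold changes, of which only Anxa11 against WT chow was called in the reported fit; the cause was not tested. With library size only, Anxa11 gave 0.28 in WT CDAHFD and 0.35 in KO CDAHFD against WT chow, Anxa7 gave 0.04 (KO CDAHFD against WT CDAHFD), 0.16 (KO CDAHFD against KO chow) and -0.13 (KO chow against WT CDAHFD), and Anxa6 gave -0.11 in the last and -0.34 in the interaction. For KO chow against WT CDAHFD, Anxa7 gave -0.0023 with RLE and -0.0018 with DESeq2. Testing every gene with a count gave -0.03 for the Anxa6 interaction. With the clock covariate, KO CDAHFD against WT CDAHFD gave 0.03 (Anxa1), 0.04 (Anxa2), 0.0037 (Anxa5) and -0.04 (Anxa11), and the Anxa13 interaction 0.20. Among libraries with a clock score above 0, Anxa6 gave -0.0012 in KO chow and -0.04 in WT CDAHFD against WT chow, Anxa2 and Anxa5 gave 0.00052 and 0.02 between genotypes under CDAHFD, and Anxa5 gave -0.0046 for KO CDAHFD and 0.02 for WT CDAHFD as the partner of KO chow.

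Leaving out 1 library at a time gave, for KO CDAHFD against WT CDAHFD, -0.24 to 0.0017 (Anxa1), -0.18 to 0.0021 (Anxa2), -0.04 to 0.11 (Anxa3), -0.13 to 0.02 (Anxa5) and -0.07 to 0.03 (Anxa7). It gave -0.08 to 0.34 (Anxa5) and -0.10 to 0.00089 (Anxa7) for KO CDAHFD against KO chow, -0.38 to 0.02 (Anxa5) and -0.04 to 0.13 (Anxa6) for KO chow against WT CDAHFD, -0.05 to 0.12 for Anxa6 in WT CDAHFD against WT chow, and -0.08 to 0.09 (Anxa6) and -0.35 to 0.43 (Anxa13) for the interaction.

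The labels give the groups the same replicate numbers, but nothing in them says that a number marks a shared litter, batch or day. The descriptions number the libraries in sequence within each genotype instead, where KO chow replicate 2 carries the number 3. With the numbers of the titles, 3 of 15 same-numbered pairs deviated together with a correlation above 0.1 (range -0.242 to 0.266). A fit with the replicate number as a block called 7 annexins in each comparison with WT chow (8 without it), 2 in KO chow against WT CDAHFD (3 without it) and 4 in the interaction (5 without it), with the other 2 counts unchanged. The calls lost were Anxa13 in KO chow (0.78, edgeR adjusted p = 0.107), Anxa11 in WT CDAHFD (-0.24, adjusted p = 0.0965), in KO CDAHFD against WT chow (-0.22, adjusted p = 0.116) and in the interaction (0.41, adjusted p = 0.116), and Anxa4 in KO chow against WT CDAHFD (-0.45, adjusted p = 0.0789). It turned the Anxa13 interaction to 0.14. KO chow has 2 libraries, and low counts limit Anxa13. Numbers of called genes overall moved by more than 1.5 times in some fits. KO CDAHFD against WT CDAHFD had 62, but 244 with DESeq2, 215 unfiltered, 180 with the clock covariate, 154 with 2 groups only, 113 with clock scores above 0 and as few as 26 without 1 library. KO CDAHFD against KO chow had 1075, but 1885 with DESeq2, 1651 with the clock covariate, 640 with the block, 600 with clock scores above 0, 581 with 2 groups only and as few as 233 without KO chow replicate 1. KO chow against WT CDAHFD had 1063, but 2680 with clock scores above 0, 2475 with the clock covariate, 2062 with DESeq2, 1985 with 2 groups only and as few as 260 without KO chow replicate 1. KO chow against WT chow had 6763, and 4320 without KO chow replicate 1. The interaction could not be fitted with 2 groups only.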
